A study of Rattus norvegicus with 8 samples.

Results

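RNA of leukocyte marker genes was measured in cultures of rat cardiac fibroblasts and myofibroblasts, as a check for immune cells among the fibroblasts. The genes were Ptprc (ENSRNOG00000000655), Cd68 (ENSRNOG00000037563), Aif1 (ENSRNOG00000000853) and Cd74 (ENSRNOG00000018735), named as known markers of leukocytes. They are 4 of the 21867 genes in the table of estimated counts, and all 4 were among the 13849 genes that passed the filter on low counts and were tested. The tables hold gene IDs without symbols, so the pairing of symbol and ID came with the list of genes and was not checked against an annotation.

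The 8 libraries fell into 4 groups of 2 replicates. No source used says that these came from separate cultures or animals, so p-values measure the spread between these libraries, which may be technical. CFs were cardiac fibroblasts of neonatal Wistar Kyoto rats, grown in high glucose medium with 10% fetal bovine serum (FBS), and served as the healthy control. MFs were myofibroblasts made from CFs by repeated passaging in low serum medium, and received no current. The 2 treated groups were such myofibroblasts held for 72 h under direct current at 1 µA/cm2 or 2 µA/cm2 in medium with 10% FBS. All groups thus started from primary cells of neonatal hearts, and no sorting step for or against leukocytes was described. Passage and the low serum medium used to make myofibroblasts set CFs apart from the other groups together with their state. The parts of these in any difference cannot be told apart. By the labels, CFs and treated cells were in 10% FBS. For the untreated MFs the sources used here do not give the medium over the 72 h of treatment. Any difference in serum between treated cells and MFs thus cannot be told apart from the current. Total estimated counts per library ranged from 26473085 to 37903701. Levels are given below as CPM, the counts of a gene scaled to a common library total, after TMM scaling, which corrects for differences in library composition. Defining fibroblast genes were not analysed here, since no source used pairs their symbols with the IDs.

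Ptprc encodes CD45, a receptor tyrosine phosphatase on the surface of all nucleated blood cells, and is widely used to tell leukocytes from stromal cells. Cd68 encodes a glycoprotein of lysosomes and endosomes that is abundant in macrophages, although fibroblasts can carry it at lower levels. Aif1 encodes IBA1, a calcium-binding protein that bundles actin in macrophages and microglia. Cd74 encodes the invariant chain, which escorts MHC class II molecules in antigen-presenting cells and which interferon gamma can induce in other cell types, fibroblasts included. The heart holds resident macrophages from before birth, and primary fibroblast cultures made by attachment to plastic can carry them along.

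The upstream sequences of 3 of the 4 genes were found in RefSeq (rat build GRCr8), and they are shown to place the measured genes in the genome. No relation between these sequences and the levels was tested. Aif1 had no entry. Each line gives the 250 bases before the start of the gene, 5′ to 3′ on the gene's own strand. Capitals mark the letters GAGGAA and the CCAAT box in either orientation.
Ptprc, chr13:52259747-52259996, minus strand: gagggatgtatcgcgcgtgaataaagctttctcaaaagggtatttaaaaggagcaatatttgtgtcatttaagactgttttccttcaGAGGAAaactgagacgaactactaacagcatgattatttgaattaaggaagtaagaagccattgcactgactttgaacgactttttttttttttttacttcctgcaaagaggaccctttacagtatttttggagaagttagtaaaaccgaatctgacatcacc
Cd68, chr10:54882442-54882691, minus strand: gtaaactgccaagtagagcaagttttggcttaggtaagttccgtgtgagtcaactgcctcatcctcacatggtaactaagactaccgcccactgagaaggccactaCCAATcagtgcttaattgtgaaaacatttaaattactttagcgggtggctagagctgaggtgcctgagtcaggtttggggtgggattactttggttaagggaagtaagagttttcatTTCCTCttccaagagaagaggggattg
Cd74, chr18:56526956-56527205, plus strand: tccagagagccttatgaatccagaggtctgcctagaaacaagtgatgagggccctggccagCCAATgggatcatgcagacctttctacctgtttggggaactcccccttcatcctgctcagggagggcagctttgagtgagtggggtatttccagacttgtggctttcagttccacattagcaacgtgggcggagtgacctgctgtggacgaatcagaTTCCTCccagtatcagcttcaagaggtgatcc

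GAGGAA is a form of the element bound by PU.1, a transcription factor of myeloid cells, and was present in all 3 windows. Only this form was searched, so other sequences bound by such factors were neither marked nor counted. In Ptprc GAGGAA lay 163 to 158 bases before the start, in Cd68 27 to 22 bases and in Cd74 32 to 27 bases before it. Of all 33469 promoter windows of the same length, 23.3% held GAGGAA on either strand. CCAAT, which was searched on both strands and does not overlap GAGGAA, was found in Cd68 and Cd74 and in 34% of all windows. TATAAA was searched on both strands too and was in none of these 3 windows and in 12.9% of all windows. These matches are letters in a window and were not tested as binding sites.

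**Figure D1:**
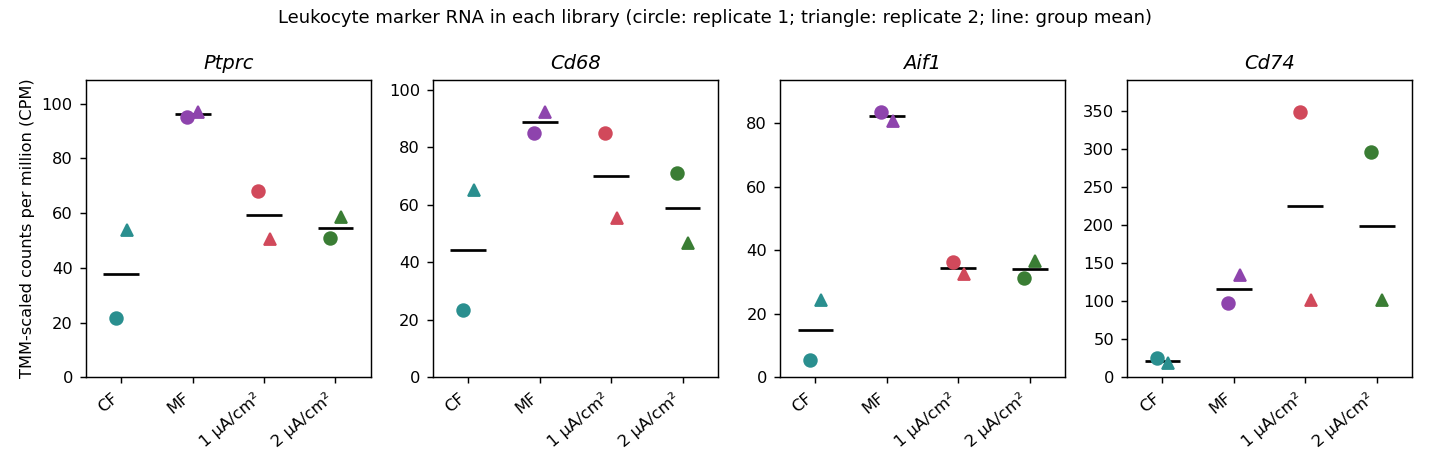
TMM-scaled CPM of each marker (y axis, starting at 0) in the 8 libraries by group (x axis), with circles for replicate 1, triangles for replicate 2 and a line at the group mean. Ptprc and Aif1 lie highest in both MF libraries, and Cd74 lies highest in the treated libraries numbered 1, at 349 and 296 CPM.

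Ptprc was present in every library. Its estimated counts were 820 and 1640 in CF, 2547 and 2581 in MF, 2029 and 1529 at 1 µA/cm2, and 1582 and 1808 at 2 µA/cm2. As CPM the CF libraries lay at 21.7 and 53.7, the MF libraries at 95.2 and 97.1, the 1 µA libraries at 68.2 and 50.5, and the 2 µA libraries at 50.8 and 58.5. The MF libraries lay above all others without overlap, and CF replicate 1 was the lowest of the 8. The mean level was lowest in CF at 37.7 ± 22.6 CPM (SD, n = 2), followed by 2 µA/cm2 at 54.7 ± 5.46 (SD, n = 2), 1 µA/cm2 at 59.4 ± 12.5 (SD, n = 2) and MF at 96.2 ± 1.33 (SD, n = 2). The first 3 of these neighbours in the order overlapped in their libraries. These are bulk samples, in which more cells of a type and more RNA per cell cannot be told apart, so no share of leukocytes follows from the levels.

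Cd68 showed a narrower range over the groups. The CF libraries lay at 23.3 and 65.0 CPM, the MF libraries at 85.1 and 92.3, the 1 µA libraries at 85.0 and 55.3, and the 2 µA libraries at 71.0 and 46.6. MF lay above both CF libraries, while treated libraries overlapped with CF, and 1 µA replicate 1 reached the level of MF replicate 1. Group means were 44.1 ± 29.5 in CF, 58.8 ± 17.3 at 2 µA/cm2, 70.1 ± 21.0 at 1 µA/cm2 and 88.7 ± 5.14 CPM in MF (SD, n = 2 each), and no pair of neighbours in this order was separated by more than the spread of its libraries.

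Aif1 ordered the libraries as CF, treated and MF without overlap, although the CF libraries lay far apart. CF replicate 2 lay nearer to the treated libraries than to CF replicate 1. It lay at 5.44 and 24.4 CPM in CF, at 83.7 and 80.8 in MF, at 36.2 and 32.6 in the 1 µA libraries and at 31.4 and 36.7 in the 2 µA libraries. All 4 treated libraries fell between CF and MF, with no overlap on either side. Means were 14.9 ± 13.4 in CF, 34 ± 3.75 at 2 µA/cm2, 34.4 ± 2.57 at 1 µA/cm2 and 82.2 ± 2.08 CPM in MF (SD, n = 2 each). The means at the 2 current densities differed by less than the spread within either.

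Cd74 followed a different order. It lay at 25.4 and 18.8 CPM in CF and at 97.7 and 134 in MF. The 1 µA libraries lay at 349 and 102 CPM, and the 2 µA libraries at 296 and 102. CF was lowest without overlap, and at each current density replicate 1 lay above both MF libraries while replicate 2 lay within their range. The means were 22.1 ± 4.65 in CF, 116 ± 25.9 in MF, 199 ± 138 at 2 µA/cm2 and 226 ± 175 CPM at 1 µA/cm2 (SD, n = 2 each), so MF and both treated groups were not separated by more than their spread.

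The variance stabilised (vst) values of the authors, on a log2 scale, gave the same order of group means for each gene. Ptprc averaged 10.10 ± 0.872 in CF and 11.56 ± 0.001 in MF, and Aif1 averaged 8.79 ± 1.22 and 11.29 ± 0.023 (SD, n = 2 each). The vst mean of Cd74 was 9.54 ± 0.311 in CF, 11.78 ± 0.332 in MF and 12.44 ± 0.961 over the 4 treated libraries (SD). The matrix of whole-number counts, whose totals ranged from 18960425 to 26687203, gave close CPM values. For Aif1 it gave 14.6 ± 13.0 in CF and 79.1 ± 0.404 in MF, and for Cd74 it gave 23.6 ± 4.95 and 124 ± 31.2 (SD, n = 2 each).

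To ask whether leukocyte RNA differed between healthy fibroblasts and the myofibroblasts derived from them, MF was compared with CF. Aif1 rose in MF, with a log2 fold change of 2.47 ± 0.589 (SE, 2 libraries per group), a fold of 5.54 with a 95% interval from 2.10 to 14.6, and an adjusted p of 0.0326 (edgeR, quasi-likelihood test, Benjamini-Hochberg method over all genes tested). The other 3 genes had higher values in both MF libraries than in both CF libraries but missed the threshold in edgeR. Cd74 had a log2 fold change of 2.39 ± 0.690 (SE, edgeR adjusted p = 0.0553), Ptprc one of 1.35 ± 0.385 (SE, edgeR adjusted p = 0.0534) and Cd68 one of 1.01 ± 0.470 (SE, edgeR adjusted p = 0.174). Calling a gene took an adjusted p below 0.05 together with a change of 1 or more on the log2 scale, and 1 of the 4 markers was called higher, beside 6.36% of all genes. Shares of all genes called are those of the fit with all 8 libraries, and leaving out 1 library moved the number of genes called between MF and CF, in either direction, from 1438 to between 336 and 1997. At an unadjusted p below 0.05 there were 3 of 4 markers, beside 35.5% of all genes. The median log2 fold change of the 4 markers was 1.87, beside -0.03 over all genes tested.

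The number of markers called between MF and CF depended on the test and on single libraries. DESeq2 called Ptprc, Aif1 and Cd74 higher, beside 7.66% of all genes. With no filter on low counts, edgeR called the same 3, beside 950 of 17184 genes called higher. Aif1 was lost without MF replicate 1 (adjusted p = 0.142), MF replicate 2 (0.122), 1 µA replicate 1 (0.0617) or 1 µA replicate 2 (0.0606), and with only CF and MF in the fit (0.07995). It was also lost in 2 fits added after seeing the data, which kept only the treated libraries numbered 2 (0.0916) or numbered 1 (0.0896). In the last 3 of these fits Cd74 was called instead (adjusted p = 0.0109, 0.0132 and 0.0125). Cd74 passed the threshold in 10 of 19 alternatives, and Aif1 missed it in 7. Its adjusted p ranged from 1.31e-05 to 0.142 over 19 alternatives, which are the same for every gene and comparison below. In the fits without 1 µA replicate 1 or 2, or without 2 µA replicate 1 or 2, Cd74 was called, in the first pair instead of Aif1 and in the second beside it, with adjusted p from 0.0422 to 0.0428. Without CF replicate 2, the CF library with more Ptprc, Cd68 and Aif1, the log2 fold changes were 2.14 for Ptprc, 1.93 for Cd68 and 3.92 for Aif1. Without CF replicate 1 they were 0.86 for Ptprc, 0.46 for Cd68 and 1.77 for Aif1. Over the 19 alternatives the adjusted p ranged from 0.00161 to 0.192 for Ptprc, from 0.0149 to 0.431 for Cd68 and from 0.0109 to 0.196 for Cd74. Where 1 library was left in a group, it was taken to vary as the other groups do.

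**Figure D2:**
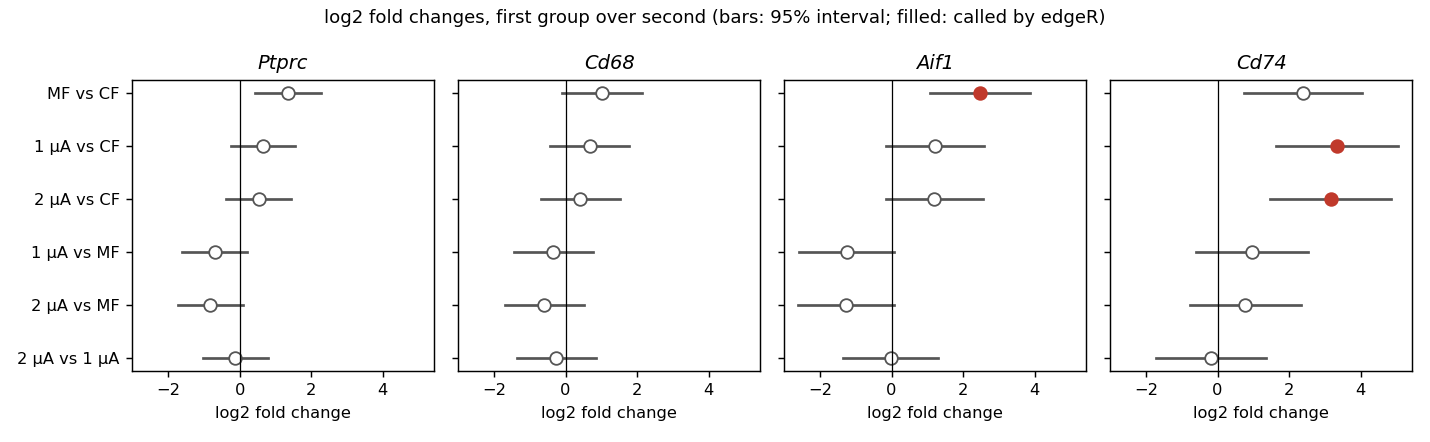
The log2 fold change of the first group over the second (x axis) for each marker and each of 6 comparisons (y axis), with bars for the 95% interval and filled points where edgeR called the gene. Aif1 is filled for MF against CF, and Cd74 is filled for both treated groups against CF.

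Treated cells were compared with untreated MF to ask whether the marker levels differed between them. The sources used here do not give how the MFs were held over the 72 h of treatment. The current thus cannot be told apart from any difference in medium or handling. Neither current density had a marker called by edgeR. At 1 µA/cm2, 0 of 4 were called, beside 3.92% of all genes, and 0 had an unadjusted p below 0.05, beside 26.3%. At 2 µA/cm2, 0 of 4 were called, beside 4.62%, and 0 had an unadjusted p below 0.05, beside 27.5%. DESeq2 also called 0 of 4 at each current density, beside 946 of 13849 genes at 1 µA/cm2 and 1040 at 2 µA/cm2. The log2 fold changes of Aif1 were -1.26 at 1 µA/cm2, with a 95% interval from -2.60 to 0.08 (edgeR adjusted p = 0.214), and -1.27 at 2 µA/cm2, with an interval from -2.61 to 0.07 (edgeR adjusted p = 0.1997). Ptprc gave -0.70, with an interval from -1.60 to 0.21, and -0.81, with an interval from -1.72 to 0.09. Cd68 gave -0.34, with an interval from -1.45 to 0.77, and -0.59, with an interval from -1.70 to 0.52. Cd74 had positive values, of 0.96 with an interval from -0.60 to 2.52 and of 0.78 with an interval from -0.78 to 2.33. Both comparisons share the MF libraries.

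With both treated groups averaged and set against MF, 0 of 4 markers were called by edgeR, beside 6.76% of all genes, and 1 had an unadjusted p below 0.05, beside 32.5%. That gene was Aif1, at a log2 fold change of -1.27 ± 0.464 (SE; 2 MF and 4 treated libraries; edgeR adjusted p = 0.113). In DESeq2 it was the 1 marker called lower, beside 4.62% of all genes (adjusted p = 0.0202). Aif1 was called by edgeR too when the CF libraries were kept out of the fit (adjusted p = 0.00154), beside 1109 of 13654 genes. Its adjusted p over 19 alternatives ranged from 0.00154 to 0.377. With the 2 groups compared alone, Aif1 was called at 1 µA/cm2 (edgeR adjusted p = 0.000847), beside 1164 of 13474 genes. At 2 µA/cm2 it was called as well (edgeR adjusted p = 0.0108), beside 839 of 13449 genes. With all 8 libraries, 543 and 640 of 13849 genes were called at these densities, so calls over all genes rose too. Over 19 alternatives the adjusted p of Aif1 ranged from 0.000847 to 0.561 at 1 µA/cm2 and from 0.00442 to 0.537 at 2 µA/cm2. Without CF replicate 1 or 2 its log2 fold changes were -1.26 at 1 µA/cm2 and -1.27 at 2 µA/cm2. The CF libraries lay at 5.44 and 24.4 CPM for Aif1. Their spread enters the test of treated cells against MF because the 4 groups share 1 estimate of the spread.

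The treated mean of Ptprc against MF was -0.76 ± 0.319 (SE, edgeR adjusted p = 0.156) on the log2 scale, and that of Cd68 was -0.47 ± 0.396 (SE, edgeR adjusted p = 0.453). For Cd74 it was 0.87 ± 0.586 (SE, edgeR adjusted p = 0.348). With only the groups compared, Ptprc had an edgeR adjusted p of 0.0117 for the treated mean, at a log2 fold change of -0.75. At 1 µA/cm2 and 2 µA/cm2 these fits gave an edgeR adjusted p of 0.0221 and 0.01835 for Ptprc, at -0.69 and -0.81. Ptprc was not called there, since each change was below 1 in size. The sign for Cd74 rested on the treated libraries numbered 1. Without 1 µA replicate 1 the log2 fold change at 1 µA/cm2 was -0.19, and without 2 µA replicate 1 that at 2 µA/cm2 was -0.19. The median of the 4 markers was -0.61, beside 0.00 over all genes tested.

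Against CF, Cd74 rose at both current densities. Its log2 fold change was 3.35 ± 0.716 (SE, 2 libraries per group) at 1 µA/cm2, a fold of 10.2 with a 95% interval from 3.13 to 33.3 (edgeR adjusted p = 0.0342). At 2 µA/cm2 it was 3.17 ± 0.710 (SE, 2 libraries per group), a fold of 8.99 with an interval from 2.79 to 29.0 (edgeR adjusted p = 0.0465). In each comparison 1 of 4 markers was called higher, beside 3.82% of all genes at 1 µA/cm2 and 2.89% at 2 µA/cm2. The lowest of the 4 treated libraries held 102 CPM of Cd74 and the higher CF library 25.4. DESeq2 also called both (adjusted p = 0.000309 and 0.000907), beside 755 of 13849 genes called higher at 1 µA/cm2 and 655 at 2 µA/cm2. The edgeR calls were lost in the fits without CF replicate 1 (adjusted p = 0.111 at 1 µA/cm2 and 0.134 at 2 µA/cm2), CF replicate 2 (0.104 and 0.127), MF replicate 1 (0.0769 and 0.0995) or MF replicate 2 (0.0768 and 0.0997), and in those without replicate 1 of the treated group itself (0.147 and 0.161). With only the groups compared the adjusted p was 0.0656 and 0.119, and with transcript length offsets it was 0.0363 and 0.0501. Over 19 alternatives the ranges were 0.000309 to 0.147 at 1 µA/cm2 and 0.000907 to 0.161 at 2 µA/cm2. The lowest log2 fold changes among them were 2.21 and 2.20, in the fits without the treated replicate 1.

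The other 3 markers were not called between treated cells and CF in the fit with all 8 libraries. Ptprc had log2 fold changes of 0.66 at 1 µA/cm2 and 0.54 at 2 µA/cm2, and Cd68 had 0.67 and 0.42. Those of Aif1 were 1.21, with a 95% interval from -0.15 to 2.57, and 1.20, with an interval from -0.16 to 2.56 (edgeR adjusted p = 0.231 and 0.2599). These values depended on which CF library was kept. Without CF replicate 2 the log2 fold changes at 1 µA/cm2 and 2 µA/cm2 were 2.66 and 2.65 for Aif1. They were then 1.45 and 1.34 for Ptprc and 1.59 and 1.34 for Cd68. Without CF replicate 1 they were 0.51 and 0.50 for Aif1, 0.16 and 0.05 for Ptprc, and 0.12 and -0.125 for Cd68. Over 19 alternatives the adjusted p of Aif1 ranged from 0.00113 to 0.545 at 1 µA/cm2 and from 0.00166 to 0.532 at 2 µA/cm2. That of Ptprc ranged from 0.0102 to 0.743 and from 0.0149 to 0.917, and that of Cd68 at 1 µA/cm2 from 0.0417 to 0.856.

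Between 2 µA/cm2 and 1 µA/cm2 no difference was detectable in any marker. edgeR called 0 of 4, beside 0.00722% of all genes, and 0 had an unadjusted p below 0.05, beside 0.52%. DESeq2 called 0, beside 7 of 13849 genes. The log2 fold changes and 95% intervals were -0.12 (-1.02 to 0.78) for Ptprc, -0.25 (-1.361 to 0.85) for Cd68, -0.02 (-1.34 to 1.31) for Aif1 and -0.18 (-1.73 to 1.364) for Cd74. These intervals include changes of more than 2-fold in either direction except for an increase of Ptprc or Cd68, which they limit to a log2 fold change of 0.78 and 0.85.

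**Figure D3:**
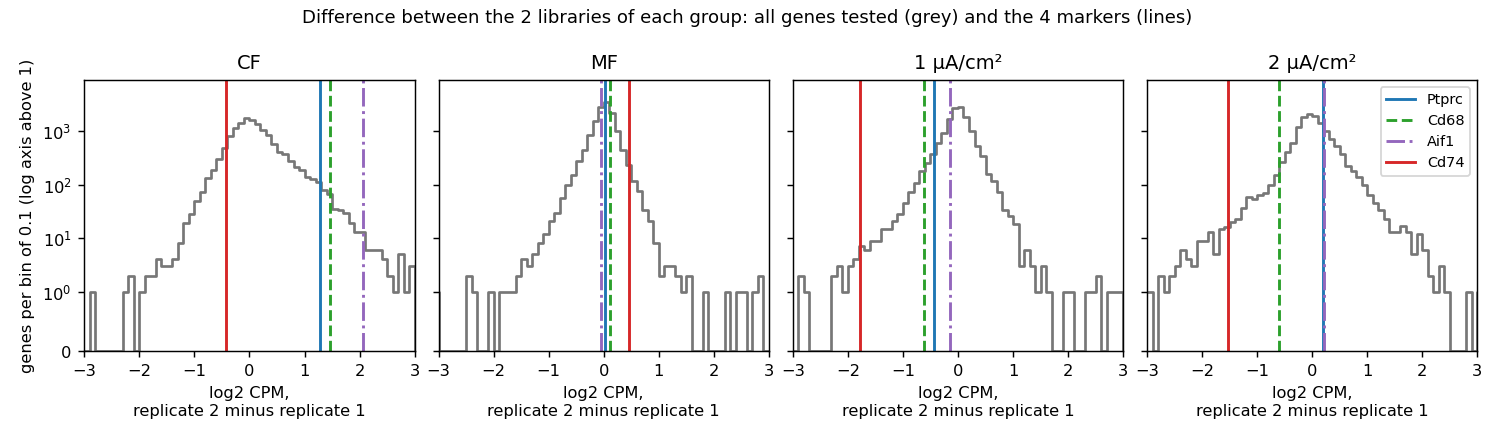
Differences in log2 CPM between the 2 libraries of each group, replicate 2 minus replicate 1 (x axis), for all genes tested (grey line, genes per bin, log axis above 1) and for the 4 markers (coloured lines). Ptprc, Cd68 and Aif1 lie on the right flank in CF, from 1.29 to 2.07, and Cd74 lies on the left flank in both treated groups, at -1.77 and -1.54.

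The markers differed between replicates as well as between groups. In CF, replicate 2 held 2.44 times the CPM of replicate 1 for Ptprc, 2.76 times for Cd68 and 4.19 times for Aif1, on the scale of CPM with 0.5 added. Differences at least as large, in either direction, were seen between the CF libraries in 2.71%, 1.69% and 0.368% of all genes tested. Cd74 went the other way in CF and was 1.34-fold higher in replicate 1, a size reached or passed by 27.2% of genes. In MF the 2 libraries lay within 1.09-fold of each other for Ptprc, Cd68 and Aif1, and Cd74 was 1.37-fold higher in replicate 2. These values describe the libraries and were not tested.

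Under current, replicate 1 was the high library for Cd74 at both densities, by 3.41-fold at 1 µA/cm2 and 2.91-fold at 2 µA/cm2. An excess of replicate 1 of at least 1.54 on the log2 scale at both densities was found in 16 of the 13849 genes tested (0.116%), Cd74 included. Cd68 had a smaller excess in the same libraries, of 1.53-fold and 1.52-fold, and 206 genes (1.49%) had an excess of at least 0.60 on the log2 scale at both. Ptprc and Aif1 showed no common direction, since Ptprc was 1.35-fold higher in replicate 1 at 1 µA/cm2 and 1.15-fold higher in replicate 2 at 2 µA/cm2, and Aif1 differed by 1.11-fold and 1.17-fold in the same manner. The sources used here do not say whether libraries with the same number were cultured or prepared together.

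**Figure D4:**
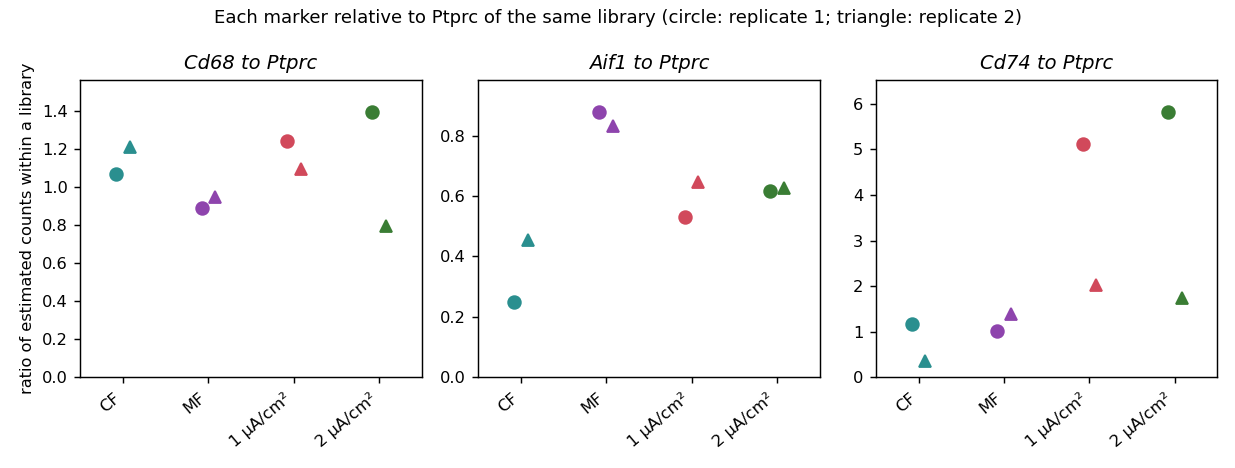
Ratio of the estimated counts of Cd68, Aif1 and Cd74 to those of Ptprc in the same library (y axes, each starting at 0) by group (x axis), with circles for replicate 1 and triangles for replicate 2. The ratio of Aif1 is 0.879 and 0.832 in MF and at most 0.645 elsewhere, and that of Cd74 is 5.12 and 5.83 in the treated libraries numbered 1 and at most 2.02 elsewhere.

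Setting each marker against Ptprc of the same library shows how far the 4 genes kept a fixed proportion. Such a ratio does not depend on the scaling of the library, and it is compared here between libraries for 1 pair of genes at a time, not between genes. Cd68 stayed closest to Ptprc, with ratios of estimated counts from 0.796 to 1.398 over the 8 libraries. For Aif1 the ratio was 0.250 and 0.454 in CF, 0.879 and 0.832 in MF, 0.531 and 0.645 at 1 µA/cm2, and 0.617 and 0.626 at 2 µA/cm2. The ratio thus lay lowest in CF and highest in MF, with the treated libraries between and no overlap. For Cd74 it was 1.17 and 0.350 in CF, 1.03 and 1.38 in MF, 5.12 and 2.02 at 1 µA/cm2, and 5.83 and 1.74 at 2 µA/cm2, with the treated libraries above all others.

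Averaged by group, the ratio of Aif1 to Ptprc was 0.856 ± 0.0334 in MF (SD, n = 2) and 0.605 ± 0.0506 in the treated libraries (SD, n = 4). That of Cd74 to Ptprc was 1.21 ± 0.253 in MF (SD, n = 2) and 3.68 ± 2.10 in the treated libraries (SD, n = 4), and that of Cd68 to Ptprc was 0.922 ± 0.0408 (SD, n = 2) and 1.13 ± 0.257 (SD, n = 4). These are descriptions. An exact permutation test of 2 against 4 libraries has 15 splits and cannot give a p under 0.0667, so no difference in a ratio could pass 0.05.

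The 4 genes together came to 75.8 and 162 CPM in CF, 362 and 405 in MF, 539 and 240 at 1 µA/cm2, and 449 and 243 at 2 µA/cm2. Cd74 gave 33.5% and 11.6% of this sum in CF and 27.0% and 33.2% in MF. In the treated libraries numbered 1 it gave 64.8% and 65.9%, and in those numbered 2 it gave 42.4% and 41.7%. Without Cd74 the sum was 50.5 and 143 CPM in CF, 264 and 270 in MF, 189 and 138 at 1 µA/cm2, and 153 and 142 at 2 µA/cm2. The MF libraries were then the highest of the 8, whereas with Cd74 included the treated libraries numbered 1 were.

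The likeness of 2 profiles was measured as the mean absolute difference of their vst values over the 8 libraries. Each profile was first centred on its own mean and was not scaled. A rank thus reflects the size of the changes as well as their shape, and a distant rank does not show that the shapes differ. The profile of Cd68 differed from that of Ptprc by 0.21 on the log2 scale and ranked 208th among the 13848 other genes tested, and that of Aif1 differed from Ptprc by 0.29 and ranked 692nd. The profile of Cd74 differed by 0.90 and ranked 13575th. Cd68 and Aif1 were less like each other than either was like Ptprc, at a difference of 0.49, and Aif1 ranked 7430th among the genes like Cd68. Among genes outside the 4 markers, the profile nearest to Ptprc was that of ENSRNOG00000019308, at a mean difference of 0.08, and the nearest to Cd74 was that of ENSRNOG00000032708, at 0.16. The vst values of ENSRNOG00000032708 were 8.55 and 7.92 in CF, 9.78 and 10.39 in MF, 11.75 and 9.86 at 1 µA/cm2, and 11.59 and 9.73 at 2 µA/cm2. It had the same high libraries as Cd74, which follows from its choice as the nearest profile over these libraries. The tables give no symbol for either ID, and nothing on function follows from the likeness.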

How the data were processed

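RNA sequencing of 8 libraries was analysed, 2 each of CF, MF and myofibroblasts under 1 µA/cm2 or 2 µA/cm2. Estimated counts were deposited by the authors, made with salmon against transcripts of rn6, then brought to gene level with tximeta. They also deposited a normalized signal (estimated counts divided by DESeq2 factors), variance stabilised values on a log2 scale, and a matrix of whole-number counts with 13341 genes, in which no gene sums to under 80. How the authors made those whole-number counts is not given in the sources used here; the labels describe STAR.

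Estimated counts were rounded and tested with edgeR 4.0.16 (limma 3.58.1, R 4.3.3) using filterByExpr, TMM and the robust quasi-likelihood test, fitting a mean for each group to all 8 libraries at once, which left 4 residual degrees of freedom. SE was derived from the fold change and its F statistic. The common biological coefficient of variation was 18.4%. The fit was tested on simulated data. DESeq2 1.42.0 was an alternative, as were RLE and upper quartile scaling, other filters and thresholds, the whole-number counts, only the groups compared, a replicate block, transcript length offsets from the normalized signal, and leaving out each library. Fits with 1 treated library per group were added after seeing the data. Replicates differed by more than sampling noise, with a chi-square per gene from 14.4 to 100.2, so none was taken as a copy. Figures used Python 3.11.15 and matplotlib 3.10.9.

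The members, lists and rules were chosen with earlier results of these data known. Named genes were the 4 markers and, for likeness, at most 2 IDs higher in MF than CF, taken for Ptprc and Cd74 after the values were seen. Lists of leukocyte, MHC class II, lymphocyte, fibroblast, endothelial, cardiomyocyte and erythroid genes were planned but not run, because the tables and the RefSeq table used (GRCr8) do not pair Ensembl IDs with symbols.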

Additional observations from a re-analysis of the deposited data

How the results depend on the processing

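Counts of markers called are out of 4. DESeq2 called 3 between MF and CF and 1 for the treated mean against MF, and no filter gave 3 between MF and CF. With only the groups compared, 1 was called at 1 µA/cm2, at 2 µA/cm2 and for their mean against MF, and 0 were called at 1 µA/cm2 or 2 µA/cm2 against CF. Transcript length offsets gave 0 at 2 µA/cm2 against CF, as did treated libraries of number 2 only (added after seeing the data). With the offsets, 697 of 13849 genes were called at 2 µA/cm2 against CF. At an adjusted p below 0.01 there were 0 markers between MF and CF, beside 498 of 13849 genes. There were also 0 at either current density against CF, beside 234 genes at 1 µA/cm2 and 129 at 2 µA/cm2. Leaving out 1 library gave 0 to 3 between MF and CF, 0 to 1 at 1 µA/cm2, at 2 µA/cm2 and for their mean against MF, 0 to 3 at 1 µA/cm2 against CF and 0 to 2 at 2 µA/cm2 against CF. The replicate block gave 2 between MF and CF, with Cd74 added to Aif1, beside 1279 of 13849 genes. It left the other counts of markers as they were. The replicate numbers did not meet the rule for pairing over all groups: deviations of libraries with the same number correlated at 0.306 across genes between 1 µA/cm2 and 2 µA/cm2 but between -0.230 and 0.088 for the other pairs of groups. Libraries with the same number thus deviated together in the treated groups, and whether they shared a culture or preparation is not given in the sources used here.

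Log2 fold changes turned in sign in these fits, and the signs involved were all of values not called. Without CF replicate 1, Cd68 at 2 µA/cm2 against CF was -0.13. Without 1 µA replicate 1, Cd74 at 1 µA/cm2 against MF was -0.19, and the differences of 2 µA/cm2 against 1 µA/cm2 were 0.11 for Ptprc, 0.09 for Cd68, 0.06 for Aif1 and 0.96 for Cd74. Without 2 µA replicate 1, Cd74 at 2 µA/cm2 against MF was -0.19 and Aif1 at 2 µA/cm2 against 1 µA/cm2 was 0.092. Without 2 µA replicate 2, Cd68 and Cd74 at 2 µA/cm2 against 1 µA/cm2 were 0.02 and 0.39. Leaving out 1 library gave ranges of -0.13 to 1.34 for Cd68 at 2 µA/cm2 against CF, -0.19 to 1.59 for Cd74 at 1 µA/cm2 against MF and -0.19 to 1.35 at 2 µA/cm2 against MF. For 2 µA/cm2 against 1 µA/cm2 they were -0.31 to 0.11 for Ptprc, -0.59 to 0.09 for Cd68, -0.13 to 0.092 for Aif1 and -1.15 to 0.96 for Cd74. With the treated libraries of number 2 only, Cd74 against MF was -0.185 at 1 µA/cm2, -0.192 at 2 µA/cm2 and -0.188 for the mean, and 2 µA/cm2 against 1 µA/cm2 was 0.21 for Ptprc and 0.17 for Aif1. Of all log2 fold changes under alternatives, 467 kept direction and side of the threshold, 29 passed it, 21 lost it and 15 turned in sign. No scaling moved the median of all genes by over 0.1 on the log2 scale. The cause of the changes was not tested.

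Over all genes, the counts called at 1 µA/cm2 against MF were 543 in edgeR, 946 in DESeq2 and 1164 with only the groups compared, and those at 2 µA/cm2 against CF were 695, 1075 and 2. Leaving out 1 library gave 4 (without MF replicate 1) to 886 (without CF replicate 1) at 1 µA/cm2 against MF, 9 (without MF replicate 1) to 985 (without CF replicate 2) at 2 µA/cm2 against MF, and 336 (without MF replicate 1) to 1997 (without CF replicate 2) between MF and CF, where edgeR called 640 and 1438 with all libraries in the last 2. It gave 17 to 1101 for the treated mean against MF, 138 to 1191 at 1 µA/cm2 against CF and 292 to 1020 at 2 µA/cm2 against CF. The shares of all genes set beside the markers hold for the fit with all 8 libraries. With 2 libraries per group, a difference that misses the threshold is not shown to be absent.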
